A study of Rattus norvegicus with 15 samples.

Results

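This report compares the retinas of rats that stayed in darkness until 6 ZT, 1 pm, with those of rats that stayed in darkness until 3 ZT, 10 am (ZT, hours after 7 am, when the light would have come on). The comparison holds 6 of the 15 arrays of the series, the 3 of 6 ZT dark and the 3 of 3 ZT dark, set against each other by their replica number, and it was followed over 31042 of 31099 probe sets, all but the controls of the array maker. The animals were Long-Evans rats, adult males per the methods, with no genetic change or drug. They were kept on a 12 hour light/dark cycle, spent the night in darkness, and the arrays of both groups saw no light in the morning. The methods give at least 6 animals per time point, and removal of the lens, only for the retinas used in real-time PCR, and say neither of the arrays. Nothing ties an array to an animal, so that p-values measure the spread between these arrays, which may be technical. Expression is given as log2 values, so that a difference of 1 is a doubling, and the change is always 6 ZT dark minus 3 ZT dark.

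The retina keeps a circadian clock of its own, which runs in darkness and times hormone release, photoreceptor metabolism and the turnover of photoreceptor membranes. Transcription factors of the clock drive their own repressors, and the repressors shut them down in turn, so that clock messages cycle through the day without light. Retinas taken at both morning hours in darkness address what differs with time of day where no light was given. The dissected tissue can also carry cells that border the neural retina, such as the pigment epithelium, which recycles the visual pigment's retinal, and fragments of lens. In a bulk sample, fewer cells of a type and less RNA per cell cannot be told apart.

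The labelled tissue was borne out by its photoreceptor genes. The 22 measured members of the rod phototransduction list had a mean log2 value between 13.51 and 13.72 in each of the 6 arrays. All probe sets had a mean between 8.52 and 8.93. Genes of the lens were bright in the same arrays, where its 14 measured crystallins had a mean between 11.16 and 13.45. The 3 pairs differed in spread. The SD of the change across probe sets was 0.226 in pair 1, 0.379 in pair 2 and 0.241 in pair 3. The array of 6 ZT dark replica 2 lay farthest from the fit of these 6, with a residual SD of 0.181 against 0.126 to 0.138 in the other 5. Changes of different pairs were weakly related across probe sets, with correlations of 0.0971, 0.181 and 0.258, and 11.52%, 8.5% and 7.42% of the probe sets had a change of exactly 0 in pairs 1, 2 and 3. The signal of the 3′ probe set of *Actb* over that of its 5′ probe set, which rises as RNA is degraded, differed between the groups in each pair: the log2 difference was 1.37, 1.23 and 1.23 at 3 ZT dark and 1.09, 0.97 and 0.71 at 6 ZT dark. Its part in the results below was not tested.

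No probe set passed an adjusted p of 0.05 in the limma fit, neither higher (0% of those tested) nor lower (0%) at 6 ZT dark. The lowest adjusted p were 0.763, of a probe set of *Acin1*, and 0.796, of one of *Edc3*, and no other was below 0.863. At an unadjusted limma p under 0.05, 772 probe sets were higher (2.49%) and 952 lower (3.07%) at 6 ZT dark. Changes were small for most of the array: 819 probe sets differed by more than 0.5 on the log2 scale and 65 by more than 1, of which 39 were higher and 26 lower, beside a median standard error of 0.116. In each pair the median change was 0. A second rule, which the study used for its own comparisons, asks for a ratio above 1.6 or below 0.7 in all 3 pairs. It took 15 probe sets above (0.0483%) and 18 below (0.058%), and these 33 are a description without a test. Since the rule asks every pair to pass, agreement between the pairs of these probe sets was partly fixed by it. Just inside the rule stood a smallest ratio of 1.617 and a largest ratio of 0.6966, and just outside it 1.597 and 0.7047. A change of the same direction in all 3 pairs was shared by 3937 probe sets upward (12.7%) and 3493 downward (11.3%).

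**Figure D1:**
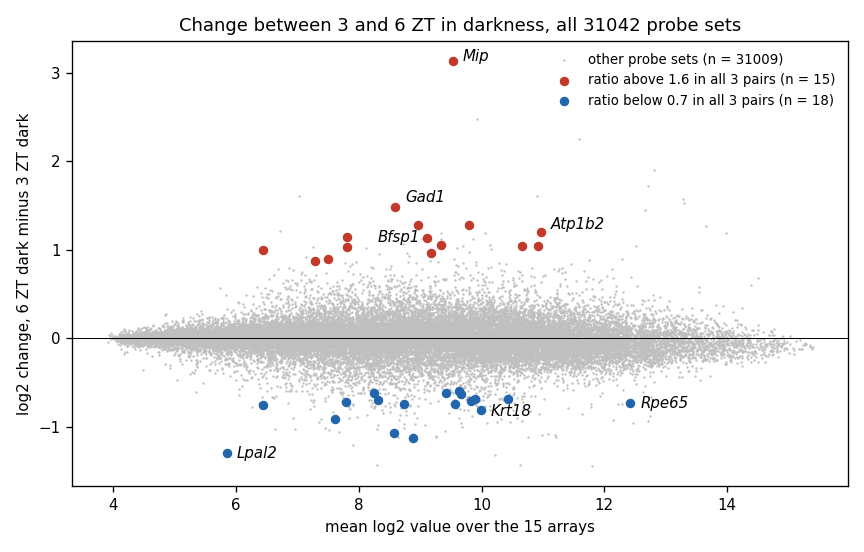
Log2 change between 3 ZT dark and 6 ZT dark (y axis) against the mean log2 value over the 15 arrays (x axis) for the 31042 probe sets. The 15 probe sets with a ratio above 1.6 in all pairs are red and the 18 below 0.7 are blue. *Mip*, a lens gene, stands farthest from 0 at 3.14, and most probe sets lie within 0.5 of no change.

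The probe set farthest from 0 was that of *Mip*, the aquaporin of lens fibre cells. Its log2 values were 9.92, 7.38 and 7.78 in the 3 ZT dark arrays and 10.87, 11.76 and 11.87 in the 6 ZT dark arrays. All 3 late arrays stood above all 3 early ones, but the early array of replica 1 was far brighter than the other two. The fitted change was 3.14 ± 1.39 (SE, n = 3 arrays per group, limma, adjusted p = 0.863). *Bfsp1* encodes filensin, a beaded filament protein of the lens fibre. Its values were 8.84, 8.64 and 9.15 at 3 ZT dark and 10.12, 9.76 and 10.14 at 6 ZT dark. The groups did not overlap, and the pairs differed by 1.28, 1.12 and 0.98, a fitted change of 1.13 ± 0.31 (SE, adjusted p = 0.863 by limma). Here and below, overlap is judged across arrays of different replica numbers, whose levels differ. The share of all probe sets without overlap was not counted.

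The bases before the start of *Mip* and *Bfsp1* are shown because both genes passed the ratio rule upward, and those of *Rpe65* and *Lrat*, described further on, because both passed it downward. They are the 250 bases 5′ of the RefSeq start in build GRCr8: chr7:1231655-1231904 on the plus strand for *Mip*, chr3:151682838-151683087 on the minus strand for *Bfsp1*, chr2:251425118-251425367 on the plus strand for *Rpe65* and chr2:170571213-170571462 on the minus strand for *Lrat*. Capitals mark TAATCC, the core that OTX and CRX homeodomain proteins bind, and TGCTGAC, the core of the site of MAF proteins, on either strand.
Mip: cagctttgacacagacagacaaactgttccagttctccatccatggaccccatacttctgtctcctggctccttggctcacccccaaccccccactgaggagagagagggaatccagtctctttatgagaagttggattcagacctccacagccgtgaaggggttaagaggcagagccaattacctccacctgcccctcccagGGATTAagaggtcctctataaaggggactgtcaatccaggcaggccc
Bfsp1: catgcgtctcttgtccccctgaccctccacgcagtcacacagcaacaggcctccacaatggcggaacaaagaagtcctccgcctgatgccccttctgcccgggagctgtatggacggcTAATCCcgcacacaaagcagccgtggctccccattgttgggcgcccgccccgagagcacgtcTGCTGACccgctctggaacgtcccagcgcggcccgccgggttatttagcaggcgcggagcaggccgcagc
Rpe65: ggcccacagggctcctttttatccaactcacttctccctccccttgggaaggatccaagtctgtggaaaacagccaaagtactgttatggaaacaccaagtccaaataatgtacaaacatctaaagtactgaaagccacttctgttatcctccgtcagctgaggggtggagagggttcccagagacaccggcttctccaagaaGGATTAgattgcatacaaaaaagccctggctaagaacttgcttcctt
Lrat: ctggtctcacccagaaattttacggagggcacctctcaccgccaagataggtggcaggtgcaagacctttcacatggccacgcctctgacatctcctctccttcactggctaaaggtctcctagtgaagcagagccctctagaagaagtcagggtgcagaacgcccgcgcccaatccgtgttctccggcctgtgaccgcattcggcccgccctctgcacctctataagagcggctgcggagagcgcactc
Each of *Mip*, *Bfsp1* and *Rpe65* held 1 match to TAATCC, and *Bfsp1* also held 1 to TGCTGAC. *Lrat* held neither sequence. Of all 33469 rat windows of 250 bases, 6.34% held TAATCC and 3.53% held TGCTGAC, and the 2 sequences do not overlap. In windows that also take in the 50 bases after the start, TAATCC lay in 2 of the 13 crystallin genes with a window, 2 of the 13 other lens genes and 4 of the 17 genes of the pigment list, against 7.17% of all windows. TGCTGAC lay in 4, 1 and 3 genes of these lists, against 4.44% of all windows.

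All 14 measured crystallins, the soluble proteins that fill the lens, were higher at 6 ZT dark by the fit, with a median log2 change of 1.19 beside 0.00 over all probe sets. The summed linear signal of the 14 genes ranged from 59604 to 157562 at 3 ZT dark and from 157735 to 261876 at 6 ZT dark. By pair the medians were 0.10, 2.37 and 1.30, so that pair 1 showed almost none of it. Of the 14, 4 were higher in all 3 pairs (28.57% against 12.7% of all probe sets), and 1, *Crygd*, had an unadjusted limma p under 0.05 (7.14% against 2.49%). Of the 15 other lens genes, of fibre membrane, cytoskeleton and regulation, 14 were higher and 1 lower, with a median of 0.30. Of these, 5 were higher in all pairs (33.33% against 12.7%) and 4 were higher at an unadjusted limma p under 0.05 (26.67% against 2.49%).

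Within the lens genes there were 2 patterns over the pairs. The alpha and beta crystallins and the fibre membrane genes *Lim2* and *Gja3* stood about as high in the early array of replica 1 as in its late one. *Crybb1*, a beta crystallin, is an example. Its values were 12.03, 9.60 and 11.13 at 3 ZT dark and 12.22, 13.95 and 13.35 at 6 ZT dark. The groups did not overlap, and the change was 0.19 in pair 1, 4.35 in pair 2 and 2.22 in pair 3. The gamma crystallins of the lens core did otherwise. *Crygd* was at 10.55, 10.48 and 8.49 at 3 ZT dark and at 12.26, 12.27 and 8.15 at 6 ZT dark. It was higher in pairs 1 and 2 and lower in pair 3, whose 2 arrays were both dim, and its groups overlapped. In pairs 1, 2 and 3 *Crygc* differed by 1.86, 1.98 and −0.78 and *Crygb* by 1.72, 1.70 and −0.87. *Cryga*, a further gamma crystallin, was nearly level at 0.09 ± 0.28. *Bfsp1* and *Lenep*, a lens epithelial protein gene, were higher in every pair, with changes of 1.13 and 0.36 ± 0.15. Among the transcription factors of the list, *Maf*, *Foxe3* and *Prox1* were at 0.17, 0.07 and 0.06.

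Pigment epithelium genes ran the other way. Of the 17 measured genes of pigment cells and the pigment epithelium, 14 were lower at 6 ZT dark, 13 of them in all 3 pairs, where 11.3% of all probe sets were. The other 3 were higher, by at most 0.12. The median log2 change was −0.46, and −0.41, −0.18 and −0.72 in pairs 1, 2 and 3. Here 4 genes were lower at an unadjusted limma p under 0.05 (23.53% against 3.07% of all probe sets), *Rpe65*, *Krt18*, *Pmel* and *Rgr*. The summed linear signal of the 17 genes was 63549, 77054 and 61896 at 3 ZT dark and 48054, 67086 and 47641 at 6 ZT dark. It was lower in every pair, and the groups overlapped through the late array of replica 2.

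*Rpe65* encodes the isomerase that makes 11-cis retinal in the pigment epithelium. It was at 12.31, 13.24 and 12.38 at 3 ZT dark and at 11.77, 12.55 and 11.42 at 6 ZT dark. Each late array was below the early array of its number, and the late array of replica 2 was above the other 2 early arrays. The change was −0.73 ± 0.25 (SE, adjusted p = 0.863 by limma). *Lrat*, the acyltransferase that supplies the retinyl ester to RPE65, was at 9.55, 10.00 and 8.94 at 3 ZT dark and at 9.01, 9.36 and 8.21 at 6 ZT dark, a change of −0.64 ± 0.31. The mean ratio of the *Lrat* pairs was 0.645 ± 0.042 (SD, n = 3 pairs). *Krt18*, a keratin of simple epithelia, was at 10.05, 10.67 and 10.19 at 3 ZT dark and at 9.47, 10.13 and 8.88 at 6 ZT dark, a change of −0.81 ± 0.29.

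Other epithelial members had the same sign in all pairs. The vitamin A receptor *Stra6* was at −0.68 ± 0.31 and the opsin-like receptor *Rgr* at −0.55 ± 0.24. The melanosome genes *Pmel*, *Dct* and *Tyrp1* were at −0.53, −0.41 and −0.46. *Ttr*, which carries thyroid hormone and retinol-binding protein, was at −0.32 ± 0.23. Over the 11 measured visual cycle genes 4 were higher and 7 lower, 5 of them in all 3 pairs (45.45% against 11.3% of all probe sets), with a median of −0.02. Those 5 were *Rpe65*, *Stra6*, *Lrat*, *Rgr* and the retinol dehydrogenase *Rdh5*, at −0.37. All 5 also belong to the pigment list counted above, so that they are no further set of genes. *Rlbp1*, which binds retinal in the pigment epithelium and Müller glia, was at 0.02 ± 0.15. *Rbp3*, the retinoid binding protein that photoreceptors secrete, was higher in all 3 pairs at 0.67 ± 0.34.

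**Figure D2:**
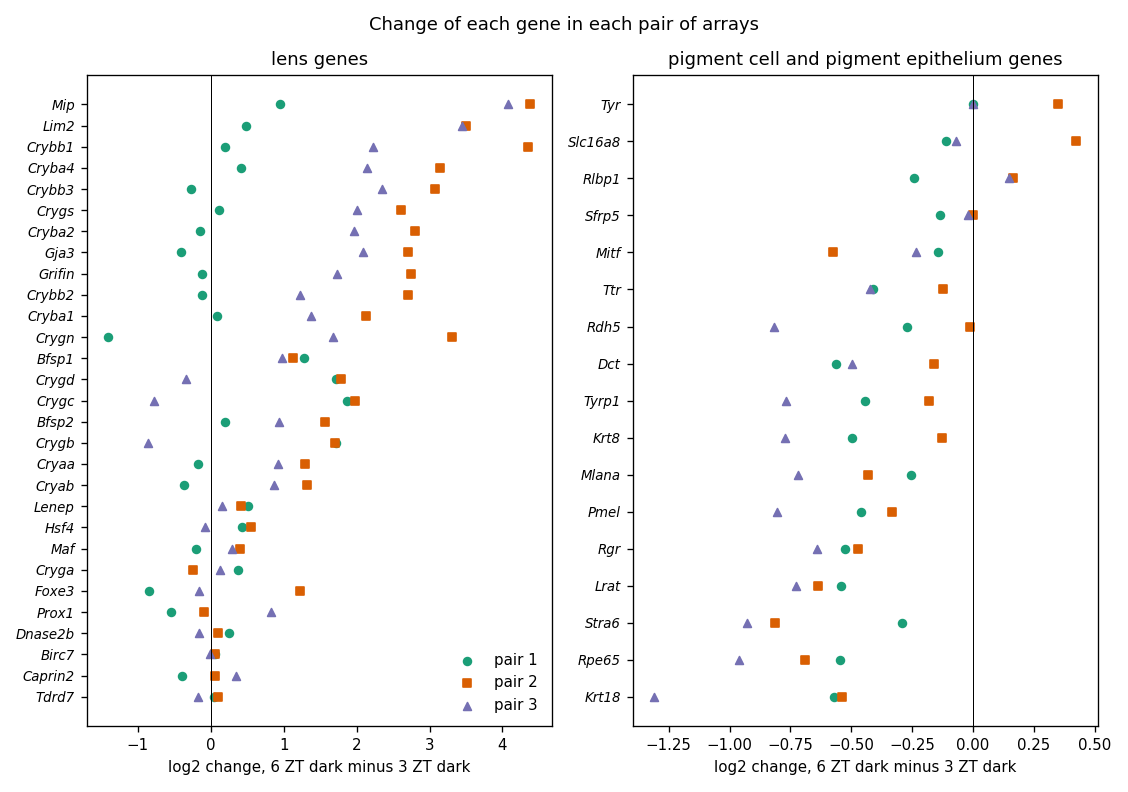
Log2 change, 6 ZT dark minus 3 ZT dark (x axis), of each measured lens gene (left) and pigment cell or pigment epithelium gene (right) in each of the 3 pairs of arrays. Most lens genes lie far to the right in pairs 2 and 3 and near 0 in pair 1, while *Crygb*, *Crygc* and *Crygd* lie to the right in pairs 1 and 2. Most pigment genes lie to the left in all pairs.

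Without pair 2, whose late array lay farthest from the fit, all 14 crystallins and 12 of the 15 other lens genes were still higher, with medians of 0.62 and 0.18, and 16 of the 17 pigment genes were lower, with a median of −0.54.

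**Figure D3:**
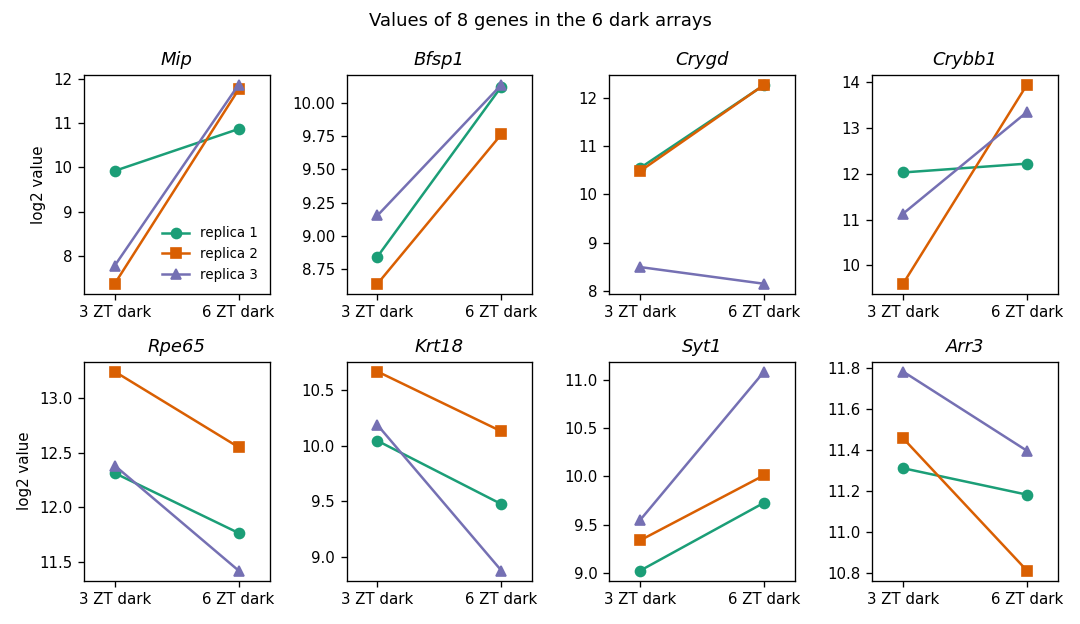
Log2 values (y axis) of 8 genes in the 3 ZT dark and 6 ZT dark arrays (x axis), with a line for each replica number. *Mip* and *Bfsp1* have no overlap between groups, *Crygd* is higher at 6 ZT dark in replicas 1 and 2 and not in replica 3, and *Rpe65*, *Krt18* and *Arr3* are lower at 6 ZT dark on every line.

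Past the ratio rule upward stood 12 named genes. *Mip*, *Bfsp1* and *S100a6* have 1 probe set each. *S100a6* encodes a small calcium-binding protein. Its values were 8.89, 8.50 and 9.10 at 3 ZT dark and 10.10, 9.71 and 9.85 at 6 ZT dark, with no overlap and a mean ratio of 2.10 ± 0.361 (SD, n = 3 pairs). The other 9 genes were *Gad1*, *Plekhb2*, *Atp1b2*, *Lingo1*, *Alg2*, *Lrp11*, *Ppp2r1a*, *Eprs1* and *Agap3*. Each of them has 2 or more probe sets, and in all 9 the brightest probe set did not pass.

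*Gad1* encodes the enzyme that makes GABA in amacrine and horizontal cells. Its dimmer probe set was at 7.54, 8.55 and 7.94 at 3 ZT dark and at 8.43, 9.82 and 10.25 at 6 ZT dark. These groups overlapped in part, and the change was 1.49 ± 0.48. Its brighter probe set, at a mean log2 value of 13.56, was at 0.17 ± 0.16. *Atp1b2* encodes a beta subunit of the sodium pump. Its dimmer probe set was at 9.87, 10.64 and 10.94 at 3 ZT dark and at 10.90, 11.75 and 12.39 at 6 ZT dark, a change of 1.20 ± 0.36 with groups that just overlapped, and its brighter one was at 0.21 ± 0.18. *Alg2*, a mannosyltransferase of N-glycan assembly, passed with 2 of its 4 probe sets, at 1.28 and 1.15, and its brightest was at 0.26. Over the 9 genes the brightest probe sets were at 0.02 to 0.44. In all 3 pairs the dim probe sets of these genes were higher while the 3′ to 5′ difference of *Actb* was smaller, by 0.28, 0.26 and 0.53, and the part of the latter was not tested.

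Past the rule downward stood 8 named genes and 10 probe sets that carry no gene symbol here. Besides *Rpe65*, *Lrat* and *Krt18* they were *Pon1*, *Dancr*, *Lpal2*, *Acin1* and *Rps24*. *Pon1*, the paraoxonase of lipoproteins, was at 9.60, 10.56 and 9.28 at 3 ZT dark and at 9.07, 9.88 and 8.37 at 6 ZT dark, a change of −0.71 ± 0.30. The groups overlapped through the arrays of replica 2. *Dancr*, a long noncoding RNA that hosts small nucleolar RNAs, had 1 probe set at −0.59 ± 0.14 with a mean ratio of 0.664 ± 0.0326 (SD, n = 3 pairs). *Lpal2* was the dimmest of the 8 and was at −1.29 ± 0.43.

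*Acin1* encodes acinus, a protein of the splicing-linked exon junction complex. The probe set with the lowest p of all was 1 of its 3, at 9.24, 9.90 and 9.80 at 3 ZT dark and at 8.53, 9.35 and 9.20 at 6 ZT dark. The 3 pairs gave a mean ratio of 0.653 ± 0.0351 (SD), and the change was −0.62 ± 0.0864 (SE, adjusted p = 0.763 by limma). Its groups overlapped only through the late array of replica 2. The other 2 probe sets of *Acin1* were at 0.08 and 0.16, the brightest included. *Rps24*, of the small ribosomal subunit, likewise passed with its dimmer probe set at −0.69 while the brighter one was at −0.17.

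Among genes ranked by the unadjusted limma p through their brightest probe set, the first 10 with a positive value began with *Syt9* and *Gnaq*. *Syt9* and *Syt1* encode calcium sensors of vesicle fusion. *Syt9* was at 0.68 ± 0.14 and *Syt1* at 0.97 ± 0.25. *Syt1* was at 9.03, 9.34 and 9.55 at 3 ZT dark and at 9.73, 10.01 and 11.09 at 6 ZT dark, with no overlap. *Exoc1*, of the exocyst that tethers vesicles, was at 0.32. *Gnaq*, the alpha subunit of Gq, was at 0.58 ± 0.13. *Map1a*, a microtubule protein of neurons, *Clstn2*, a synaptic adhesion protein, and *Slc6a11*, a GABA transporter, were at 0.42, 0.42 and 0.46. *Peds1*, *Nectin4* and *Glb1* were at 0.42, 0.29 and 0.36.

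Of the first 10 with a negative value, *Nrf1*, a transcription factor of nuclear-encoded mitochondrial genes, was at −0.38 ± 0.0853. *Cox8b*, a subunit of cytochrome c oxidase, was at −0.37, and *Mgst1*, a membrane-bound glutathione transferase, also at −0.37. *Gng11*, a G protein gamma subunit, was at −0.39, *Gtf2e2*, of the general transcription factor TFIIE, at −0.30, and *Nsmce2*, a SUMO ligase of the SMC5/6 complex, at −0.43. *LOC102553043*, *Fkbp7*, *Aarsd1* and *Dancr* were at −0.58, −0.34, −0.46 and −0.59. All of these 20 genes had an adjusted limma p of 0.863, and the choice took only genes with one direction in all 3 pairs.

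The list of synaptic vesicle release held more of its genes on the higher side. Of 39 measured genes 34 were higher and 5 lower at 6 ZT dark, 17 were higher in all 3 pairs (43.59% of the list against 12.7% of all probe sets) and none was lower in all 3. The median change was 0.17, and 0.09, 0.35 and 0.12 by pair. At an unadjusted limma p under 0.05, 4 genes of the list were higher (10.26% against 2.49% of all probe sets). Beside *Syt1* these were *Syn1*, *Stx1a* and *Syt11*. *Syn1*, a synapsin that ties vesicles to the cytoskeleton, was at 0.68 ± 0.23. *Stx1a*, a syntaxin of the fusion complex, was at 0.36 ± 0.16, and *Syt11* was at 0.18. *Rims1*, a scaffold of the active zone, was at 0.81 ± 0.40. *Syn1* was at 10.39, 10.47 and 10.34 at 3 ZT dark and at 10.80, 11.53 and 10.92 at 6 ZT dark, with no overlap. Without pair 2, 34 genes of the list were higher, with a median of 0.11.

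Inner retinal neurons were described by their own lists. Of 19 genes of ganglion cells, whose axons form the optic nerve, 17 were higher, 6 of them in all pairs (31.58% against 12.7% of all probe sets), with a median of 0.17 and none at an unadjusted p under 0.05. The transcription factor *Pou4f1* was at 0.43 ± 0.24 and the nicotinic receptor subunit *Chrna6* at 0.33 ± 0.19, both higher in all 3 pairs. Pair 1 led here, with a median of 0.35 against −0.02 and 0.14 in pairs 2 and 3. Of 21 amacrine cell genes 15 were higher, with a median of 0.10. *Gad2* was at 0.34 ± 0.14 and the glycine transporter *Slc6a9* at 0.47 ± 0.20, but neither was higher in every pair. *Th*, the first enzyme of dopamine synthesis, was at 0.39 ± 0.18. All 7 horizontal cell genes were higher by the fit, where 50.43% of all probe sets were, with a median of 0.11 and *Lhx1* at 0.24. Only 2 of the 7 were higher in all 3 pairs (28.57% against 12.7% of all probe sets). Their medians by pair were −0.07, 0.20 and 0.26. The 10 bipolar cell genes split evenly, with a median of 0.04 and *Car10* at 0.36.

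Receptors and channels leaned the same way by a small amount. Of 33 transmitter receptor genes 24 were higher, 9 of them in all 3 pairs (27.27% against 12.7% of all probe sets), and 9 lower, with a median of 0.11. The GABA receptor subunit *Gabra3* was at 0.46 ± 0.18 and the NMDA receptor subunit *Grin1* at 0.51 ± 0.22. Of 43 voltage-gated and potassium channel genes 36 were higher and 7 lower, with a median of 0.10, but 5 were higher in all 3 pairs (11.63%, under the 12.7% of all probe sets) and none of these had an unadjusted p under 0.05. Its member with the lowest p went against the list. *Kcnma1*, the large-conductance calcium-activated potassium channel, was at 11.81, 12.18 and 12.48 at 3 ZT dark and at 11.10, 11.65 and 12.19 at 6 ZT dark, lower in every pair with overlapping groups and a change of −0.51 ± 0.20. Of 8 sodium pump genes 6 were higher, with a median of 0.13, and of 15 genes of dopamine, adrenergic and melatonin signalling 8 were, with a median of 0.04. In that list *Drd5*, a dopamine receptor, was at 0.44 ± 0.19, *Drd2* at 0.54 ± 0.25, and the adrenergic receptor *Adra1b* at −0.01 ± 0.19.

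**Figure D4:**
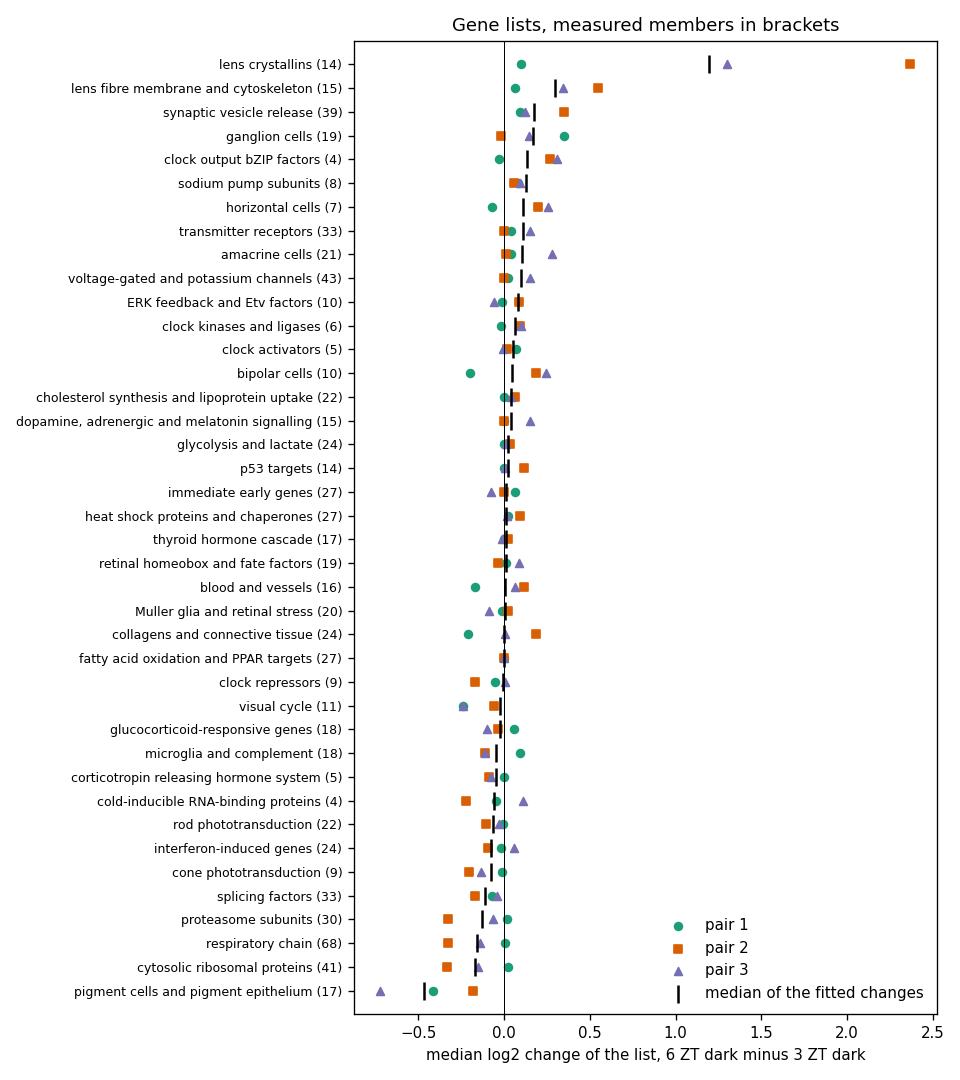
Median log2 change, 6 ZT dark minus 3 ZT dark (x axis), of each of 40 gene lists (y axis, measured members in brackets) in pairs 1, 2 and 3, with a black bar at the median of the fitted changes. Both lens lists and the pigment list stand farthest from 0. The ribosomal, respiratory chain and proteasome lists lie below 0 in pairs 2 and 3 and near 0 in pair 1.

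The lists of the cytosolic ribosome, the respiratory chain and the proteasome lay on the lower side by the fit, through pairs 2 and 3 and not pair 1. Of all probe sets 50.43% were higher by the fit. All 41 measured genes of the cytosolic ribosome were lower by the fit, with a median of −0.17 and a range from −0.38 to −0.03. Of these, 9 were lower in all 3 pairs (21.95% against 11.3% of all probe sets). In pair 1, 31 of the 41 were higher and the median was 0.02, against −0.33 and −0.15 in pairs 2 and 3. *Rpl39* was at 9.69, 10.01 and 10.14 at 3 ZT dark and at 9.50, 9.83 and 9.79 at 6 ZT dark. Its groups overlapped, and the change was −0.24 ± 0.0691. *Rps13* was at −0.38 ± 0.16 and *Rpl21* at −0.22. In the respiratory chain 63 of 68 genes were lower, with a median of −0.16 and medians of 0.01, −0.33 and −0.14 by pair. In pair 1, 37 of the 68 were higher and 25 lower. *Uqcrh*, of complex III, was at −0.21 and *Ndufb3*, of complex I, at −0.26. Of 30 proteasome subunits 27 were lower, with a median of −0.13 and medians of 0.015, −0.328 and −0.0635 by pair. In pair 1, 18 of the 30 were higher and 10 lower. *Psma6* was at −0.20 and *Psmd12* at −0.29, and none had an unadjusted p under 0.05. Without pair 2, 39 ribosomal, 60 respiratory and 24 proteasome genes were still lower, with medians of −0.06, −0.07 and −0.04.

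Of 33 splicing factor genes 27 were lower, 13 of them in all 3 pairs (39.39% against 11.3%), with a median of −0.11 and −0.07, −0.17 and −0.04 by pair. Without pair 2, 24 were lower, with a median of −0.06. *Luc7l*, of the U1 particle, was at −0.32 ± 0.0919. *Clk4*, a kinase of splicing factors, was at −0.36 ± 0.13, *Luc7l3* at −0.22, and *U2af1*, which reads the 3′ splice site, at −0.30. Heat shock proteins and chaperones split, with 15 of 27 genes higher and a median of 0.01. *Hspe1*, the mitochondrial co-chaperonin, was at −0.24 ± 0.12 and *Dnajb6* at −0.59 ± 0.31.

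Most clock genes had small values over these 3 hours. *Nr1d1* encodes REV-ERBα, which represses *Bmal1*. It was at 11.08, 10.85 and 11.39 at 3 ZT dark and at 11.35, 11.93 and 11.39 at 6 ZT dark, a change of 0.46 ± 0.17 that came mostly from pair 2. *Per3*, a period gene, was at 9.34, 9.90 and 9.94 at 3 ZT dark and at 8.22, 9.66 and 9.56 at 6 ZT dark. It was lower in every pair and the groups overlapped, with a change of −0.58 ± 0.23. *Dbp*, an output factor of the clock, was higher in every pair at 0.44 ± 0.28. *Per2* was at −0.18 ± 0.22, *Nr1d2* at −0.07 and *Bmal1* at 0.05 ± 0.13. Over the 9 clock repressors 4 were higher and 5 lower, with a median of −0.01. Of 5 activators 3 were higher with a median of 0.05, and *Rorb* was at −0.24. The 4 output bZIP factors had a median of 0.13, and −0.03, 0.27 and 0.31 by pair. Among them *Tef* was at 0.16, *Hlf* at 0.11 and *Nfil3* at 0.00, and *Dbp* alone was higher in all pairs. Of 6 clock kinases and ligases 5 were higher with a median of 0.07, *Usp2* at 0.25 and *Csnk2a1* at −0.19.

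Windows of 300 bases at the RefSeq start of these clock genes were searched on both strands for the E-box CACGTG, the D-box TTATGTAA and the orphan receptor site AGGTCA, none of which contains another. Windows were found for 16 of the 18 activators, repressors and output factors. The E-box was present for *Bhlhe40*, *Bhlhe41*, *Nr1d1* and *Tef*, the D-box for *Per2*, and the receptor site for *Bmal1* and *Nr1d2*. Of all 33469 windows 6.42% held the E-box, 0.893% the D-box and 16.2% the receptor site.

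Photoreceptor genes had small values. Of 22 rod phototransduction genes 7 were higher and 15 lower, 8 of them in all 3 pairs (36.36% against 11.3% of all probe sets), with a median of −0.06 and a range from −0.18 to 0.31. *Rom1*, a protein of the disc rim, was at −0.13. The list also held *Gucy2d*, which in rat is a guanylate cyclase of olfactory neurons, at 0.23. Of 9 cone genes 4 were higher and 5 lower, 3 of them in all 3 pairs (33.33% against 11.3% of all probe sets), with a median of −0.07. *Arr3*, cone arrestin, was at 11.31, 11.46 and 11.78 at 3 ZT dark and at 11.18, 10.81 and 11.40 at 6 ZT dark, lower in every pair with overlapping groups and a change of −0.39 ± 0.15. The cone transducin subunits *Gngt2* and *Gnat2* were also lower in every pair, at −0.35 and −0.28, while the cone opsin *Opn1mw* was at 0.06 ± 0.18. Of 19 retinal homeobox and fate factors 10 were higher, with a median of 0.01. *Crx* was at 0.59 ± 0.40 and *Lhx4* at 0.22 ± 0.10, both higher in all 3 pairs.

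The activity-dependent genes gave 2 larger single values. *Dusp6*, the phosphatase that turns off ERK, was at 10.27, 10.92 and 10.39 at 3 ZT dark and at 9.92, 9.78 and 9.96 at 6 ZT dark. The groups did not overlap, and the change was −0.64 ± 0.21. *Fos* was at 11.55, 12.36 and 11.40 at 3 ZT dark and at 11.65, 11.10 and 10.22 at 6 ZT dark, lower in pairs 2 and 3 only, at −0.78 ± 0.46. Their lists were level: of 10 genes of ERK feedback and Etv factors 7 were higher with a median of 0.08, and of 27 immediate early genes 16 were higher with a median of 0.01, *Klf2* being at −0.18. In the thyroid hormone cascade 9 of 17 genes were higher with a median of 0.01. The receptor *Thra* was at 0.35 ± 0.17, the transporter *Slco1a5* at −0.43 ± 0.25, and *Dio2*, the deiodinase that makes T3, at 0.21 ± 0.38.

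The remaining lists had medians within 0.08 of 0. Of 20 genes of Müller glia and retinal stress 10 were higher, with a median of 0.00, *Cebpd* at −0.25 and *Mt1* at −0.34. Of 24 genes of collagens and connective tissue 12 were higher, with a median of 0.00. *Col5a2* and *Mgp*, proteins of the matrix, were at −0.53 ± 0.19 and −0.50 ± 0.19, lower in every pair. Of 16 genes of blood and vessels 9 were higher, with a median of 0.01, *Tie1* at 0.22 and haemoglobin *Hbb* at −0.75 ± 0.60. Of 18 genes of microglia and complement 6 were higher, with a median of −0.05 and *Lyz2* at −0.35. Of 24 interferon-induced genes 9 were higher, with a median of −0.07 and *Oasl* at −0.27. Of 18 glucocorticoid-responsive genes 7 were higher, with a median of −0.03, and *Angptl4* was at −0.35. Of 14 p53 targets 8 were higher, with a median of 0.02, *Sesn2* at 0.36 ± 0.12 and *Mdm2* at −0.15.

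Metabolic lists were as level. Of 24 genes of glycolysis and lactate 16 were higher, with a median of 0.02, and the hexokinases *Hk1* and *Hk2* were at 0.39 ± 0.20 and 0.63 ± 0.36. Of 27 genes of fatty acid oxidation and PPAR targets 13 were higher, with a median of 0.00. *Pdk2*, which holds back pyruvate oxidation, was at 0.52 ± 0.20 and *Cpt1a*, which brings fatty acids into mitochondria, at 0.23 ± 0.12. Of 22 genes of cholesterol synthesis and lipoprotein uptake 14 were higher, with a median of 0.04 and *Srebf2* at 0.30. The 4 cold-inducible RNA-binding protein genes had a median of −0.06 with *Rbmx* at 0.15, and of 5 genes of the corticotropin releasing hormone system 1, *Crh*, was higher, at 0.07 ± 0.36, with a list median of −0.05.

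Retinas of rats under 1000 lux were also taken at 3 ZT and 6 ZT, and the difference of both intervals was tested in the same fit. How long the 6 ZT light animals were exposed is not settled, since their sample titles name 6 hours and their source and treatment labels name 3. In addition, the array of 3 ZT light replica 2 stood apart, with a residual SD of 0.255 and an *Actb* difference of 2.40, and light values are therefore also given without pair 2, as the mean of the other pairs. No probe set passed an adjusted p of 0.05 by limma, with a lowest adjusted p of 0.776. At an unadjusted p under 0.05 the dark interval was the higher for 561 probe sets (1.81%) and the lower for 1286 (4.14%). Of the 31042 probe sets, the ratio rule took 10 upward and 62 downward in the light interval, against 15 and 18 in darkness. No probe set passed in the same direction in both intervals. With so few probe sets on each side, this does not show a difference between darkness and light. The median change of the crystallins was −0.57 in light against 1.19 in darkness, but the light pairs scattered, with medians of −1.08, 2.22 and −2.72, so that pair 2 had the sign of darkness. Without it the light median was −1.92. The other lens genes had a light median of −0.12, and −0.45, 0.21 and −0.54 by pair. *Bfsp1* was at −0.90 in light, and the difference of the intervals was 2.02 ± 0.44 (SE, adjusted p = 0.776 by limma). For *Crygd* it was 2.51 ± 0.58, and for *Crygc* 2.84 ± 0.82. Without pair 2 these differences were 2.51, 2.42 and 3.11.

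Pigment epithelium genes had a median of 0.09 in light against −0.46 in darkness, and the light pairs had medians of 0.38, 0.12 and −0.14. The difference of the intervals was −1.17 ± 0.43 for *Lrat* and −0.61 ± 0.36 for *Rpe65*, and without pair 2 it was −1.29 and −0.62. *Pmel* was lower in every light pair, at −0.86 against −0.53 in darkness. *Per3* was at 0.57 in light, with a difference of −1.15 ± 0.33, and *Arr3* at 0.29, with a difference of −0.68 ± 0.21. Without pair 2 the light value was 0.18 for *Per3* and 0.15 for *Arr3*. The probe set of *Acin1* was at 0.10 in light, with a difference of −0.71 ± 0.12, and at −0.71 without pair 2.

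Other genes had the same sign in both intervals. The dimmer probe set of *Atp1b2* was at 1.37 in light and 1.20 in darkness, *Syt1* at 0.72 and 0.97, *Dbp* at 0.69 and 0.44, and *Dusp6* at −0.45 and −0.64. In light without pair 2 these 4 were at 0.92, 0.39, 0.29 and −0.31. The light medians of the ribosomal and respiratory chain lists were 0.05 and 0.13, where pair 2 alone was above 0, at 0.28 and 0.48. Without pair 2 they were −0.07 and −0.06, on the side they had in darkness. The synaptic vesicle median was 0.12 in light and 0.02 without pair 2, against 0.17 in darkness.

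**Figure D5:**
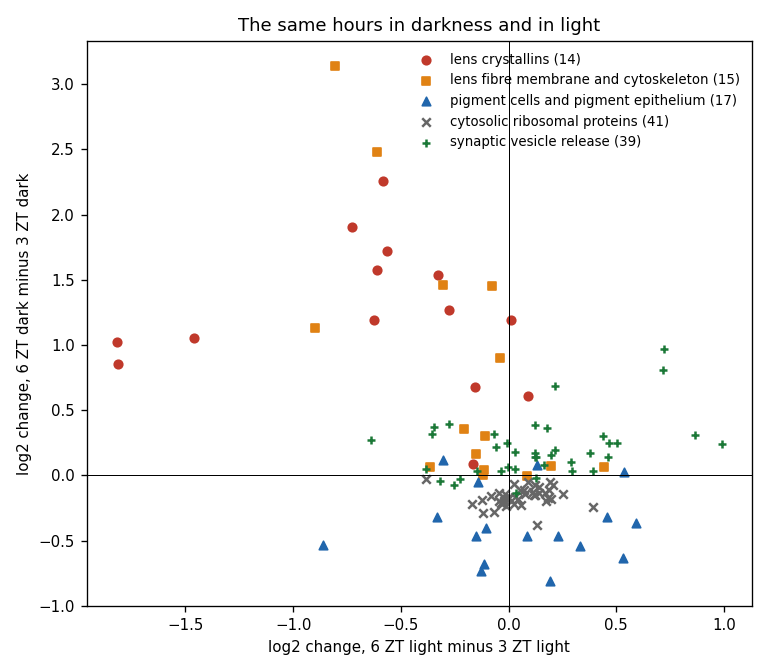
Log2 change of single genes between 3 and 6 ZT in darkness (y axis) against that in light (x axis), for 5 gene lists. Most lens genes lie at the top left, higher late in darkness and lower late in light by the fit over all pairs. Most pigment genes lie below 0 on the y axis. Ribosomal genes cluster near the origin below 0 on the y axis.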

How the data were processed

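Retinal RNA was hybridised to Affymetrix rat expression arrays. The deposited values are on the log2 scale. Per the methods, the authors summarised the scans by RMA, a procedure that removes background, equalises arrays and merges the probes of a set. The deposited arrays were not level, however. At 3 ZT dark the medians of replicas 1, 2 and 3 were 8.309, 8.601 and 8.745. At 6 ZT dark they were 8.289, 8.609 and 8.782. No further normalization was applied here, and changes were taken between arrays of one replica number. The software version is not given in the sources used here. Gene symbols came from the array annotation, updated through RefSeq for 20764 probe sets. 20832 probe sets carry 1 symbol, 436 several and 9831 none. Where a gene has several probe sets, the one with the highest mean over the 15 arrays stood for it unless another is named.

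The fit used limma 3.58.1 in R 4.3.3 on all 15 arrays, 5 conditions in 3 replicas, with condition and replica number as terms and Benjamini-Hochberg adjustment over 31042 probe sets. It was tested on simulated data. Deviations from the condition means of same-numbered 3 ZT dark and 6 ZT dark arrays correlated at 0.522, 0.298 and 0.661, and those of different numbers between −0.505 and −0.00901, so that the numbers, which come from the sample titles, were taken to pair the arrays. Ratios are of the linear values of a pair. The number of arrays limits the precision.

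The 40 gene lists and the rule for named genes were chosen with earlier results of these data known, and lists are described by counts and medians without a test. The rule names the 10 genes per direction with the lowest p, among brightest probe sets of one sign in all 3 pairs, up to 15 per direction past the ratio rule, up to 4 members per list with the lowest p, and genes the study discusses. *Fos*, *Maf*, *Foxe3*, *Prox1*, *Hlf*, *Nfil3*, *Rdh5*, *Rlbp1*, *Cryga*, *Crybb1*, *Crx*, *Hbb*, *Edc3* and others outside it were chosen after their values were seen. Alternatives were no replicate block, fewer arrays, a second normalization (quantile or cyclic loess), the dimmest probe sets removed, array weights (statmod 1.5.0), an intensity trend, other ratio limits, every probe set of a gene, and each array or replica left out. Leaving out pair 2 from the list counts and from the light interval, normalizing anew for the test of both intervals, and the promoter sequences TAATCC and TGCTGAC were chosen after seeing the data. Figures were drawn with matplotlib 3.10.9.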

Additional observations from a re-analysis of the deposited data

How the results depend on the processing

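No probe set passed an adjusted p of 0.05 in either direction, or in the test of the dark against the light interval, under the alternatives fitted. At an unadjusted limma p under 0.05 the 772 higher and 952 lower probe sets became 28 and 100 without the replicate block, 1252 and 975 in the 6 arrays alone, 1635 and 1803 with array weights, 1410 and 1467 without the 2 arrays of largest *Actb* difference, and 304 to 1070 and 374 to 1453 with 1 array left out. The ratio rule took 12 and 18 probe sets without the pairing, 19 and 23 after quantile and 15 and 20 after cyclic loess normalization. With limits above 1.5 and below 1 over 1.5, looser upward but stricter downward, the rule took 31 and 4. Above 2 and below 0.5 the rule took 1 and 1. It took 22 to 114 upward and 73 to 215 downward with 1 pair left out, which is by construction a looser rule, and the 18 downward probe sets held 8 gene symbols.

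Of the single genes named, these turned their sign when 1 array or replica was left out, over the ranges given: *Cryga* from −0.10 to 0.32, *Rlbp1* from −0.10 to 0.15, *Per2* from −0.30 to 0.017, *Bmal1* from −0.047 to 0.12, *Opn1mw* from −0.015 to 0.19, *Dio2* from −0.054 to 0.37, *Crh* from −0.32 to 0.53, *Tef* from −0.033 to 0.33, *Prox1* from −0.32 to 0.37, *Foxe3* from −0.506 to 0.535, *Hlf* from −0.096 to 0.318, *Nfil3* from −0.043 to 0.048 and *Adra1b* from −0.21 to 0.27, the last also at 0.004 after cyclic loess normalization. *Foxe3* was also at −0.095 with array weights, and *Nfil3* at −0.002 after quantile or cyclic loess normalization. The cause was not tested. Of the 40 list medians 16 turned their sign under at least 1 alternative, each of them within 0.07 of 0 before and 0.09 after, among them rod phototransduction at 0.02 after cyclic loess normalization and cone phototransduction at 0.03 with every probe set of a gene. Neither lens list, nor the pigment, synaptic vesicle, ribosomal, respiratory chain, proteasome or splicing list was among the 16.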
